A study of Mus musculus with 16 samples.

Results

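The 9 NF-kB feedback and target genes Nfkbia, Nfkbiz, Nfkbie, Tnfaip3, Birc3, Nfkb1, Nfkb2, Relb and Icam1 were taken by symbol from the 55367 genes counted in each library. All 9 passed the filter on low counts, which kept 19509 genes. They were read across 16 RNA-seq libraries of mIMCD3, an epithelial line of collecting duct origin from mouse inner medulla, with 2 biological replicates in each of 8 groups. Wild-type (WT) cells first had 5 h in DMSO, the solvent, or in 10 µM SFN (sulforaphane, an activator of the transcription factor Nrf2). They were collected under isosmotic conditions or after a further 1 h or 6 h of hyperosmotic stress, which was 600 mOsm at 1 h and is given only as a time at 6 h. Nrf2-/- cells received SFN and were collected isosmotic or after 1 h, and Nrf2-/- cells in DMSO were not analysed here.

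The Nrf2-/- line was made with lentiviral Cas9 and guide vectors and drug selection, and whether it is a clone or a pool is not stated in the sources used here. WT cells are not stated to carry the vectors, so the loss of Nrf2 and the history of the line cannot be told apart. The isosmotic cells are described as collected right after the 5 h treatment, so stress, a change of medium and elapsed time cannot be told apart either. Total counts ran from 34484296 to 50774875 per library. Because the RNA came from whole cultures, fewer cells of a kind and less RNA per cell cannot be told apart.

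NF-kB is a family of dimers built from RelA, RelB, c-Rel and the p50 and p52 proteins, which are cut from the precursors encoded by Nfkb1 and Nfkb2. In resting cells IkB proteins such as IkBα, the product of Nfkbia, hold the dimers in the cytoplasm until the IKK kinase complex marks them for destruction, and NF-kB then switches on genes for its own inhibitors, IkBα and the ubiquitin editor A20 (Tnfaip3) among them. In kidney epithelium the pathway is known for controlling chemokines, adhesion molecules and survival genes, and in the renal medulla it is one of the pathways that respond to high osmolality.

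Stretches of DNA just before the start sites of 4 members are shown because they hold the letters of the kB motif, the site NF-kB dimers bind. Start-site sequences from RefSeq (GRCm38.p6, 250 bases before to 50 after each start) were found for 6 of the 9 members, Nfkbia, Nfkbie, Tnfaip3, Birc3, Nfkb2 and Icam1, and not for Nfkb1, Nfkbiz and Relb. Each line gives 30 bases on the strand of the gene, and capitals mark the kB match. Positions count from the start site of these sequences. For Tnfaip3 and Nfkb2 this site lies inside the gene span given below.
Nfkbia, match from -29, chr12:55492657-55492686, minus strand: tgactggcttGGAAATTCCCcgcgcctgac
Nfkbie, match from -106, chr17:45555584-45555613, plus strand: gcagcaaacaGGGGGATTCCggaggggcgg
Tnfaip3, match from -125, chr10:19015516-19015545, minus strand: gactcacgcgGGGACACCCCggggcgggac
Tnfaip3, match from -12, chr10:19015403-19015432, minus strand: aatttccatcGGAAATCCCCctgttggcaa
Nfkb2, overlapping matches from -39, chr19:46304689-46304718, plus strand: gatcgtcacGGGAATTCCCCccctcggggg
Nfkb2, match from -11, chr19:46304716-46304745, plus strand: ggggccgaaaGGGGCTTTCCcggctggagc
The sequence of Nfkbia, whose level varied with both SFN and stress, is also given over the 250 bases before its start site, chr12:55492648-55492897 on the minus strand.
Nfkbia, upstream: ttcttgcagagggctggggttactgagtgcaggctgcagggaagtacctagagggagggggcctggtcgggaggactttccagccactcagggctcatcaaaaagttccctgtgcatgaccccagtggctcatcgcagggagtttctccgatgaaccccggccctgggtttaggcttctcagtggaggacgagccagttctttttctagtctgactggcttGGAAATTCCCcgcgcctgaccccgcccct
The kB motif was searched on both strands as GGGRNNYYCC, where R is A or G, Y is C or T and N is any base. Of 32851 RefSeq start-site sequences of the same length 8.46% hold it. The windows of Birc3 and Icam1 and a second window of Tnfaip3 held no match of these letters, and the other 2 windows of Nfkb2 held 1 or more. Stretches that differ from these letters by 1 base, as in the Icam1 window, were not counted. A window without a match may therefore still hold a kB site. The AP-1 motif TGANTCA, present in 7.81% of all windows, occurred at -156 in Nfkbie, at -136 in Tnfaip3 and in the second window of Nfkb2. The antioxidant response element TGACNNNGC, which Nrf2 can bind and which 12.4% of windows hold, occurred in Nfkbia at -13. None of these overlapped a kB match. A match is a description of the letters and not of binding.

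In isosmotic WT cells in DMSO the inhibitor gene Nfkbia and the precursor genes Nfkb2 and Nfkb1 were the most abundant of the 9 per length. On the scale of CPM (counts scaled to library size with TMM factors) per kilobase of exon, Nfkbia stood at 71.5 ± 2.48 (SD, n = 2), Nfkb2 at 55.2 ± 1.06 and Nfkb1 at 17.2 ± 0.746. Nfkbiz stood at 12.8 ± 0.400, Relb at 11.1 ± 0.572 and Tnfaip3 at 10.8 ± 0.682, and the last pair did not differ beyond their spread. Nfkbie at 5.64 ± 0.0851 and Birc3 at 2.48 ± 0.0469 followed, and Icam1, the endothelial and epithelial adhesion molecule that binds leukocytes, was close to absent. Counts of Icam1 were 4 and 0 in WT DMSO isosmotic cells, 17 and 13 at 1 h, and 11 and 0 at 6 h. With SFN they were 4 and 9 isosmotic, 14 and 19 at 1 h, and 8 and 4 at 6 h. Nrf2-/- libraries held 0 and 0 counts isosmotic and 10 and 8 at 1 h. A count of 0 allows up to 3 counts, 0.0556 to 0.0935 CPM across libraries, so levels of Icam1 were at or near the limit of the depth, no fold is given for it, and it was not called in the comparisons below except in alternative fits, where this is said.

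In GENCODE M21 annotation of GRCm38, Nfkbia lies at chr12:55489410-55492647, Nfkbiz at chr16:55811375-55838899, Nfkbie at chr17:45555703-45563169, Tnfaip3 at chr10:19000910-19015657 and Birc3 at chr9:7848699-7873186. Nfkb1 lies at chr3:135584655-135691547, Nfkb2 at chr19:46304320-46312385, Relb at chr7:19606217-19629438 and Icam1 at chr9:21015985-21028817. Nfkb1 overlaps Gm43430 on its own strand, Nfkb2 overlaps AC114539.1 and Psd on the opposite strand, and Icam1 overlaps the antisense gene Gm47079. Whether strand was used in counting is not given in the sources used here, so reads of such overlaps cannot be told apart.

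The labels were checked first. Nfe2l2, which encodes Nrf2, had 391 and 433 counts in isosmotic Nrf2-/- libraries and 389 and 386 at 1 h, against 2496 to 5013 in the 12 WT libraries. The Nrf2 target Nqo1, a quinone reductase, was at 2.55 and 2.85 CPM in DMSO, at 7.19 and 7.38 CPM in SFN, at 0 counts in both isosmotic Nrf2-/- libraries, and at 9 and 4 counts in those at 1 h. Of the hyperosmotic check genes, the aldose reductase gene Akr1b3 went from 340 and 380 CPM to 404 and 421 CPM at 1 h and to 5496 and 5716 CPM at 6 h in DMSO. The betaine transporter Slc6a12 was at 0 counts in both isosmotic DMSO libraries and at 25.4 and 27.7 CPM at 6 h. The keratin gene Krt8 was the most abundant collecting duct and epithelial marker in each library outside 6 h, where Pax2 led, and 1 to 4 of the 16 markers on that list were at 0 in a library. The 2 Nrf2-/- libraries at 1 h stood apart: their replicate coefficient of variation was 0.348, against 0.0393 to 0.128 in the other groups. Counts of members are therefore given with and without these libraries where the call of a member differs. Counts of the pathway lists are where they differ by over 1.5 times. Shares of all genes given in the text are from the fit to all libraries. They are not the background for counts from other fits, for which no share is given.

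After 1 h of stress in DMSO the inhibitor genes Nfkbia and Tnfaip3 were lower, as were Nfkbiz and Relb, the inhibitor gene Nfkbie was not called, and no member was called higher. Of the 9 members, 4 fell and 0 rose, where 4.11% of all genes tested fell and 7.10% rose (edgeR's quasi-likelihood test, Benjamini-Hochberg adjusted p under 0.05). The 4 were Nfkbia, Nfkbiz, the gene for IkBζ, an atypical nuclear IkB protein that can also activate NF-kB targets, Tnfaip3 and Relb, a subunit of the noncanonical pathway.
Nfkbia was at 112 and 118 CPM isosmotic and at 81.3 and 74.1 CPM at 1 h, and it fell by 0.57 on the log2 scale (SE 0.134, edgeR adjusted p = 0.0140). Both stressed libraries lay below both isosmotic ones. Nfkbiz went from 65.8 and 63.0 CPM to 35.1 and 37.2 CPM, a log2 change of -0.83 (SE 0.219, edgeR adjusted p = 0.0253). For Tnfaip3 the values were 81.8 and 74.8 CPM before and 57.4 and 55.6 CPM after, a log2 change of -0.47 (SE 0.0961, edgeR adjusted p = 0.00553). Relb, at 44.9 and 41.7 CPM before and 34.1 and 30.4 CPM after, changed by -0.42 on the log2 scale (SE 0.115, edgeR adjusted p = 0.0280). In none of these genes did the groups overlap. As these genes had passed the test, this is no further support. The same holds where groups are said not to overlap below, and the share of all genes without overlap is not given. Over the 24 alternative fits the log2 change of Nfkbia ran from -0.63 to -0.50 and that of Nfkbiz from -0.88 to -0.79. Tnfaip3 ran from -0.54 to -0.41 and Relb from -0.51 to -0.35. Birc3, which encodes the ubiquitin ligase cIAP2, had a log2 difference of -0.51 (edgeR adjusted p = 0.149), while Nfkbie, Nfkb1 and Nfkb2 differed by -0.01, 0.07 and 0.08. A fit without the 2 Nrf2-/- libraries at 1 h was chosen after seeing the data, and its share of all genes is not given. In it 5 members fell, Birc3 being the addition. The count was 0 when replicate 2 of the stressed or replicate 1 of the isosmotic DMSO libraries was left out and 1, Tnfaip3, without replicate 1 of the stressed or replicate 2 of the isosmotic libraries.

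In lists of pathway genes, which include the members, more were called lower than higher at 1 h in DMSO. Il6 and Klf4 were the genes called higher in the lists below. Of all genes tested 4.11% fell and 7.10% rose. Of 24 genes of the IKK complex and its adaptors 3 fell, namely Map3k14 (the NIK kinase, log2 change -1.20), Traf1 (-0.91) and Bcl10 (-0.46), and 0 of 17 receptors and 0 of 6 tested ligands were called. Without the Nrf2-/- 1 h libraries 4 of the receptors fell and 1 rose, 1 ligand fell, and 4 of the IKK complex and adaptor genes fell and 1 rose. Among IkB genes 3 of 6 fell, the members Nfkbia and Nfkbiz and the low gene Nfkbid (-2.54), the last named here after its values were seen. Of 15 chemokine and cytokine targets 6 fell and 1 rose, with a median log2 difference of -0.52 against 0.00 over all genes tested. The cytokine gene Lif went from 172 and 166 CPM to 43.7 and 50.4 CPM, a log2 change of -1.85 (edgeR adjusted p = 1.40e-06), and the neutrophil chemokine gene Cxcl5 fell by 1.01 on that scale. The gene that rose was Il6, named after its values were seen, with 0 and 0 counts before and 45 and 37 after. Of 14 adhesion and effector targets 4 fell, among them Ptgs2, the cyclooxygenase-2 gene (-0.57), and Irf1 (-0.92). Immediate-early genes, which share upstream kinases with NF-kB, fell in 14 of 22 cases and rose in 1, with log2 changes of -2.13 for Junb and -2.83 for Btg2, and the 1 that rose was Klf4 (1.03). Without the Nrf2-/- 1 h libraries these counts were 17 and 2, and those of the chemokine and cytokine targets 8 and 2. The part of their lower level in that of the NF-kB targets was not tested.

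By 6 h in DMSO the members had moved in both directions. Of the 9, 3 rose and 5 fell, where 23.9% of all genes tested rose and 22.0% fell. Nfkbiz, Tnfaip3 and Nfkb1 were higher than in isosmotic cells, and Nfkbia, Nfkbie, Birc3, Nfkb2 and Relb were lower.
Nfkbiz reached 176 and 161 CPM from 65.8 and 63.0 CPM, a log2 change of 1.39 (SE 0.220, edgeR adjusted p = 0.000149), after its fall at 1 h. Nfkb1 went from 213 and 201 CPM to 395 and 409 CPM, a log2 change of 0.96 (SE 0.0894, edgeR adjusted p = 9.9e-07). Tnfaip3 stood at 114 and 102 CPM, above both isosmotic libraries, with a log2 change of 0.46 (SE 0.0958, edgeR adjusted p = 0.00115). These 3 genes thus rose above their isosmotic levels, Nfkbiz and Tnfaip3 after being below them at 1 h.
Nfkbie, the gene for the inhibitor IkBε, showed the largest change among the 9, from 17.4 and 17.0 CPM to 3.77 and 3.27 CPM (log2 change -2.29, SE 0.156, edgeR adjusted p = 4.95e-08). At 1 h its values had been 17.4 and 16.7 CPM, so its fall lay between 1 h and 6 h. Birc3 went from 12.3 and 12.6 CPM to 4.09 and 2.81 CPM (-1.85, SE 0.224, edgeR adjusted p = 1.15e-05). The decline of Nfkbia continued, to 54.7 and 59.4 CPM (-1.01, SE 0.136, edgeR adjusted p = 2.91e-05). Relb at 22.7 and 23.1 CPM (-0.92) and Nfkb2 at 181 and 182 CPM (-0.48, edgeR adjusted p = 0.00984) were lower by less, and no group of any of these 5 genes overlapped the isosmotic one.
Against 1 h, 8 members differed at 6 h as well, 3 higher and 5 lower (20.4% and 22.0% of all genes), with the log2 change of Nfkbia at -0.45 (edgeR adjusted p = 0.0154), of Tnfaip3 at 0.93 and of Nfkbiz at 2.22. Both comparisons at 6 h use the same 6 h libraries. Scaling by RLE moved the median log2 difference of all genes at 6 h from 0.05 to 0.14, and the 8 members kept their calls and directions. Nfkb2 was not called against isosmotic cells when either 6 h library was left out, nor Nfkbia against 1 h when replicate 1 of either time was left out.

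**Figure D1:**
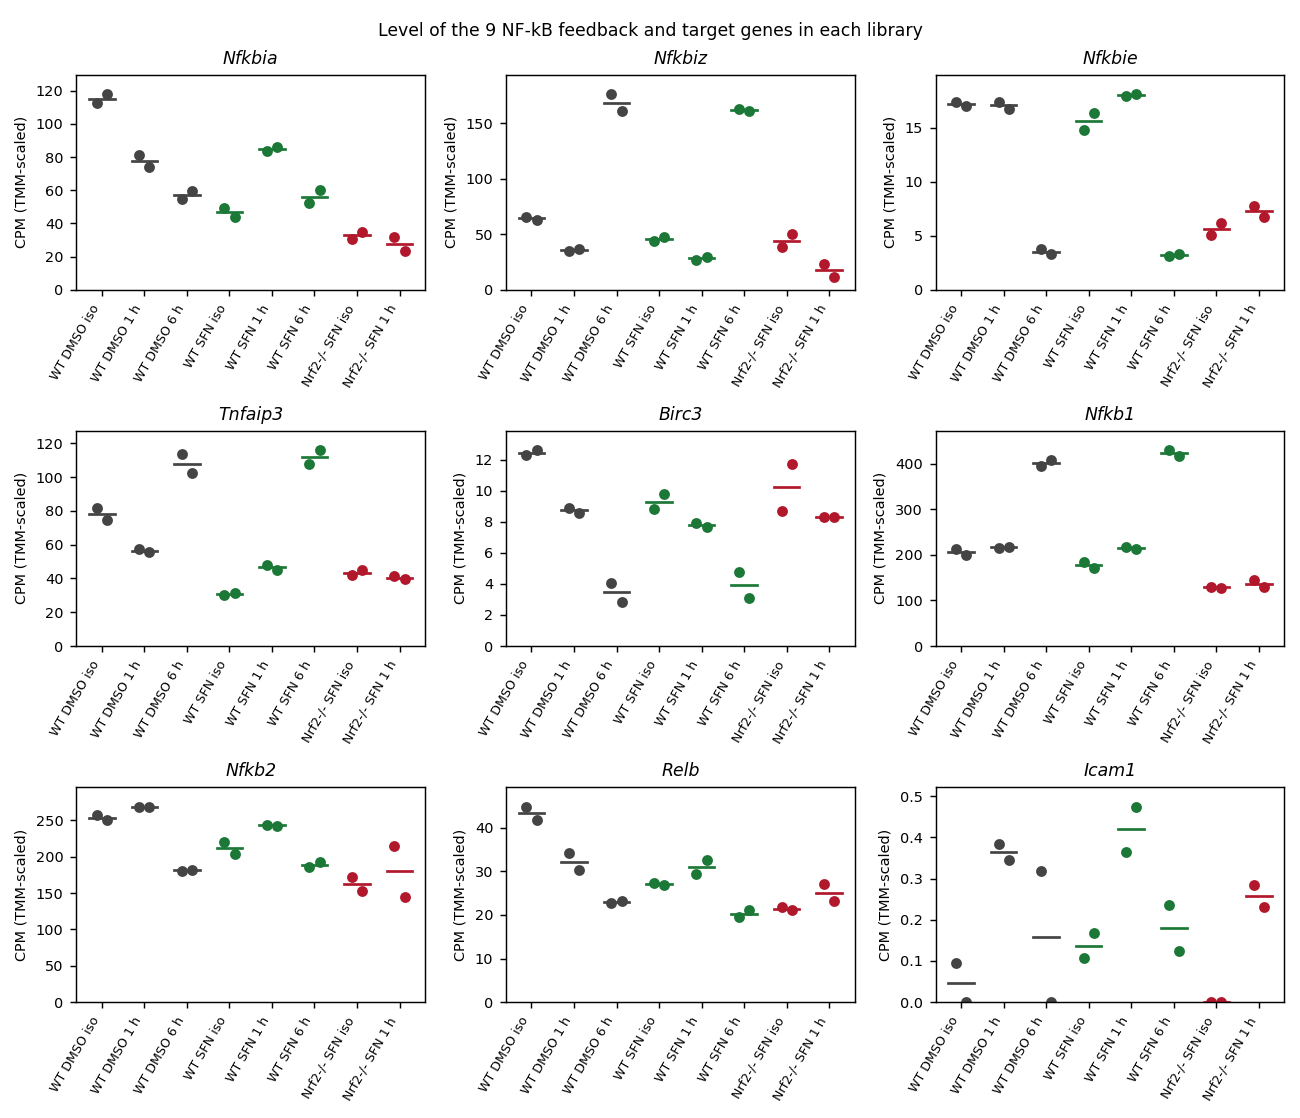
Level of each of the 9 genes in TMM-scaled CPM (vertical axis, from 0) in the 8 groups (horizontal axis), with 1 point per library and a bar at the mean of the 2 libraries. Nfkbia falls from isosmotic cells to 6 h in DMSO but not in SFN, Nfkbiz, Tnfaip3 and Nfkb1 are highest at 6 h, and Nfkbie and Birc3 in WT cells are lowest there.

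At 6 h the chemokine and cytokine targets also held both higher and lower genes. Of all genes tested 23.9% rose and 22.0% fell. Of the 15 targets tested, 5 rose and 6 fell (median log2 difference 0.15, against 0.05 over all genes). The neutrophil chemokine genes rose most: Cxcl1 went from 52.9 and 54.4 CPM to 585 and 593 CPM (log2 change 3.46, SE 0.410, edgeR adjusted p = 4.51e-05). Cxcl2 reached 152 and 150 CPM from 6.72 and 8.02 CPM (4.36), and Cxcl5 rose by 4.18. Cxcl10, an interferon-responsive chemokine gene, fell by 1.24 and Lif by 0.72 on the log2 scale. Among adhesion and effector targets 6 of 14 rose and 2 fell, Ptgs2 going from 343 and 306 CPM to 1838 and 1791 CPM (2.48), while Vcam1, an adhesion molecule, was among the lower genes (-1.59). The survival genes Cflar, the caspase-8 inhibitor c-FLIP (2.46), Ier3 (2.97) and Pim1 (2.44) rose with Bcl2l1, and 2 of the 9 survival genes fell, Birc3 being 1 of them.
The machinery upstream was lower more often than higher at 6 h. Of 24 IKK complex and adaptor genes 13 fell and 3 rose, with a median of -0.46, and the IKK subunits went apart, Ikbkb (IKKβ) at 0.91 and Ikbkg (NEMO) at -1.26. Map3k14 fell by 1.89 and the interleukin-1 receptor kinase gene Irak2 by 2.68 on the log2 scale. Of 17 receptors 4 rose, Tlr2 by 2.78, and 7 fell, Tlr3 by 2.48 and Ltbr by 1.28. All 5 subunit genes were called, 4 of them lower, namely Rela (-0.35), Rel (-0.61) and the members Nfkb2 and Relb. Of 14 negative regulators 3 rose and 5 fell, the A20 partner Tnip1 by 1.62. The members Tnfaip3 and Birc3 are on this list. Rises of 4 of 17 receptors and 3 of 14 negative regulators were near the 23.9% of all genes that rose. All 7 hyperosmotic check genes rose, with a median of 3.96.
More genes were detected at 6 h, 24274 to 25115 with at least 1 count per library, against 20312 to 21797 in isosmotic libraries and 22583 to 24242 at 1 h. Leukocyte marker counts summed to 39.0 to 40.2 CPM at 6 h and to 9.53 to 17.7 CPM in all other libraries. Their most abundant gene at 6 h was Cd14, 2 or 3 of the 10 markers were at 0, and 5 of 7 tested rose in DMSO, Ptprc among them. Endothelial markers, led by Pecam1, summed to 147 to 186 counts at 6 h and to 2 to 37 in the other libraries. Collecting duct and epithelial markers summed to 5403 and 5473 CPM at 6 h in DMSO, against 3313 and 3720 CPM isosmotic. For proximal tubule markers these sums were 26.9 and 20.3 CPM, against 11.5 and 9.06 CPM. The part of all these markers in the levels at 6 h was not tested.

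In isosmotic cells SFN lowered the genes for the main inhibitors. Of the 9 members 3 fell and 0 rose, where 1.76% of all genes tested fell and 1.09% rose. Tnfaip3 was 0.392 times and Nfkbia 0.406 times as high as in DMSO.
Tnfaip3 was at 30.1 and 31.3 CPM with SFN, against 81.8 and 74.8 CPM in DMSO (log2 change -1.35, SE 0.0980, edgeR adjusted p = 3.66e-06). Nfkbia was at 49.4 and 44.1 CPM, against 112 and 118 CPM (-1.30, SE 0.136, edgeR adjusted p = 5.6e-05). The drop in Relb was from 44.9 and 41.7 CPM to 27.4 and 26.8 CPM (-0.68, SE 0.116, edgeR adjusted p = 0.0043). None of the 3 overlapped between treatments, and Nfkbia and Tnfaip3 passed in all 24 alternative fits. Relb was not called without replicate 1 of DMSO or replicate 2 of SFN.
Nfkbiz was at 44.3 and 47.2 CPM (-0.49, edgeR adjusted p = 0.295), Nfkb1 at 184 and 172 CPM (-0.22, adjusted p = 0.244) and Nfkb2 at 221 and 204 CPM (-0.26, adjusted p = 0.399), each below its DMSO libraries. Without the 2 Nrf2-/- 1 h libraries, or without either of them, these 3 fell too, 6 members in all. The log2 difference of Birc3 was -0.42 (95% interval -0.86 to 0.03) and that of Nfkbie -0.14 (95% interval -0.44 to 0.17).
Chemokine and cytokine genes of the pathway were lower with SFN in 8 of 15 cases and higher in 0. Their median was -1.05, against 0.00 over all genes. Cxcl2 had 30 and 31 counts with SFN and 282 and 363 in DMSO (log2 change -3.44, edgeR adjusted p = 0.00183), and Ccl2, a monocyte chemokine gene, went from 66.6 and 59.0 CPM to 25.5 and 25.5 CPM (-1.30). Cxcl1 (-1.88) and Lif (-1.73) fell as well. Of 14 adhesion and effector targets 5 fell, Lcn2, which encodes the tubular injury protein NGAL, by 1.90 and Ptgs2 by 1.02, and 3 of 9 survival targets fell, Pim1 by 1.24. Of 24 IKK complex and adaptor genes 1 fell (Traf1) and 1 rose (Ikbkg, 0.60), and 2 of 17 receptors fell (Il1r1 and Tlr2). Immediate-early genes fell in 17 of 22 cases, Junb by 1.73 and Fosb by 2.22. Leaving out the Nrf2-/- 1 h libraries gave 11 lower chemokine and cytokine genes of 15 and 7 lower adhesion and effector genes of the 13 then tested. That fit gave 6 lower survival genes of 9 and 20 lower immediate-early genes of 22. It also gave 4 lower receptors of 17, and 2 lower and 2 higher IKK complex and adaptor genes of 24. The share of all genes called in that fit is not given, so these counts are not compared with the shares above. Of the 8 Nrf2 check genes 6 rose, Slc7a11 by 2.39 and Hmox1 by 2.03. Collecting duct and epithelial markers fell in 6 of 14 cases, Cldn4 by 2.13, and their summed level was 2429 and 2238 CPM with SFN against 3313 and 3720 CPM in DMSO. Their part in the lower NF-kB targets was not tested.

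**Figure D2:**
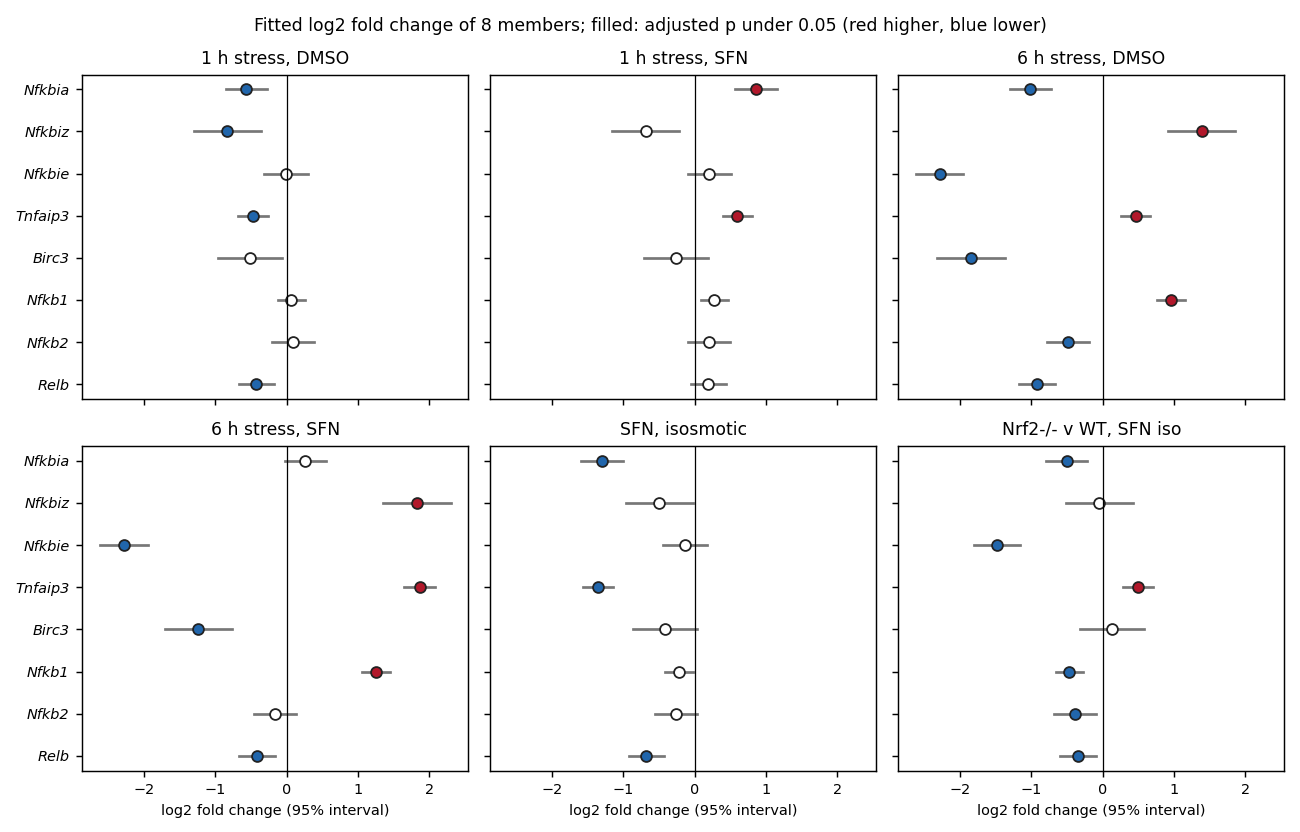
Fitted log2 fold change with its 95% interval (horizontal axis) of 8 members, Icam1 left out for its low counts, in 6 comparisons, with filled points for edgeR adjusted p under 0.05. Nfkbia and Tnfaip3 lie left of 0 with SFN in isosmotic cells and at 1 h of stress in DMSO, and right of 0 at 1 h of stress in SFN.

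Under stress no member was called between SFN and DMSO, and neither were nearly all other genes tested. At 1 h 0 of 9 differed, where 0.0923% of all genes did, and at 6 h 0 of 9 differed, where 0.0410% did. DESeq2 also gave 0 at both times, and at an unadjusted p under 0.05 there was 1 at 1 h, Tnfaip3, and 0 at 6 h.
Nfkbia was at 83.9 and 86.1 CPM after 1 h in SFN and at 81.3 and 74.1 CPM in DMSO, a log2 difference of 0.13 (95% interval -0.16 to 0.42). The values of Tnfaip3 were 48.0 and 45.2 CPM in SFN and 57.4 and 55.6 CPM in DMSO, a difference of -0.28 (95% interval -0.49 to -0.07). A fit to these 4 libraries alone called 3 members lower with SFN at 1 h, namely Nfkbiz, Tnfaip3 and Nfkb2. At 6 h Nfkbia was at 52.3 and 59.9 CPM in SFN (-0.03, 95% interval -0.32 to 0.26) and Tnfaip3 at 108 and 116 CPM (0.05, 95% interval -0.15 to 0.26), and both overlapped DMSO. None of the 15 chemokine and cytokine or 22 immediate-early genes was called at either time. Without the Nrf2-/- 1 h libraries 2 immediate-early genes were at 1 h and 1 at 6 h. Of the Nrf2 check genes 7 of 8 were higher with SFN at 1 h.

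The change under stress was therefore measured separately in SFN. After 1 h 2 of the 9 members rose and 0 fell, where 5.94% of all genes rose and 3.58% fell. Both were inhibitor genes that had fallen in DMSO. The shares are from the fit to all libraries, and counts from other fits below are not compared with them.
Nfkbia rose from 49.4 and 44.1 CPM to 83.9 and 86.1 CPM (log2 change 0.86, SE 0.136, edgeR adjusted p = 0.0011), and Tnfaip3 from 30.1 and 31.3 CPM to 48.0 and 45.2 CPM (0.60, SE 0.0972, edgeR adjusted p = 0.00134). Nfkbiz, at 27.1 and 29.9 CPM, differed by -0.68 (edgeR adjusted p = 0.069), and Nfkb1, at 217 and 213 CPM, by 0.27 (edgeR adjusted p = 0.0698). Without the Nrf2-/- 1 h libraries, or without either of them, both passed, for 4 members in all.
The difference between the 1 h change in SFN and that in DMSO passed the test for these 2 genes, where 0.559% of all genes passed. It was 1.43 on the log2 scale for Nfkbia (SE 0.191, 95% interval 1.02 to 1.84, edgeR adjusted p = 0.0018) and 1.07 for Tnfaip3 (SE 0.137, 95% interval 0.78 to 1.36, edgeR adjusted p = 0.0013). Each held in all 24 alternative fits. For Relb the value was 0.62 (edgeR adjusted p = 0.176), and it passed without the Nrf2-/- 1 h libraries, for 3 members in all. This difference contains the lower isosmotic level in SFN as well as the level at 1 h, and Nfkbia reached nearly the same level at 1 h in both treatments.
After 6 h in SFN 3 members rose and 3 fell, where 24.7% and 22.9% of all genes did. These shares are from the fit to all libraries, and none is given for the other fits below. Tnfaip3 rose by 1.86 (SE 0.0993, edgeR adjusted p = 3.63e-09), Nfkbiz, at 163 and 161 CPM, by 1.83, and Nfkb1, at 430 and 417 CPM, by 1.25. Nfkbie, at 3.11 and 3.33 CPM (-2.28), Birc3, at 4.76 and 3.12 CPM (-1.24), and Relb, at 19.6 and 21.1 CPM (-0.42), fell. The log2 difference of Nfkbia was 0.26 (95% interval -0.03 to 0.55, edgeR adjusted p = 0.127), which passed as higher in 8 of 24 alternative fits, DESeq2 and the fit without the Nrf2-/- 1 h libraries among them. Without the Nrf2-/- 1 h libraries, or without either of them, 8 members were called, 4 higher and 4 lower, Nfkb2 being the other addition as lower. Relb was not called without replicate 1 of SFN at 6 h.
Relative to DMSO the 6 h change in SFN was more positive by 1.27 for Nfkbia (SE 0.191, edgeR adjusted p = 0.00333) and by 1.40 for Tnfaip3 (SE 0.136, edgeR adjusted p = 9.1e-05), where 0.759% of all genes differed. Without the Nrf2-/- 1 h libraries 3 members differed at 6 h, Relb being the addition. Both differences, at 1 h and at 6 h, rest on the same isosmotic libraries. Nfkbie, by contrast, changed by -2.29 in DMSO and -2.28 in SFN, a difference of 0.01 (95% interval -0.46 to 0.48).
Chemokine and cytokine genes also differed in this direction. Of 15, 3 were more positive in SFN at 1 h, Lif by 1.96, Cxcl5 by 1.63 and Ccl2 by 1.42. At 6 h 6 of 15 were, Cxcl2 by 3.60. Without the Nrf2-/- 1 h libraries these counts were 9 and 9. Immediate-early genes did so in 12 of 22 cases at 1 h and 11 at 6 h. Without those libraries 18 did at 1 h, with 1 more negative, and 20 at 6 h. The fit to all libraries called 0 of 24 IKK complex and adaptor genes and 0 of 17 receptors at either time, and the fit without those libraries called 2 of 24 at each time and 2 and 3 of 17. Of the markers, 3 of 14 of the collecting duct and epithelium were more positive at 1 h, Cldn4 by 2.16. Without those libraries 7 of 14 were at 1 h, and at 6 h 6 were more positive and 1 more negative. Their part in the differences was not tested.

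**Figure D3:**
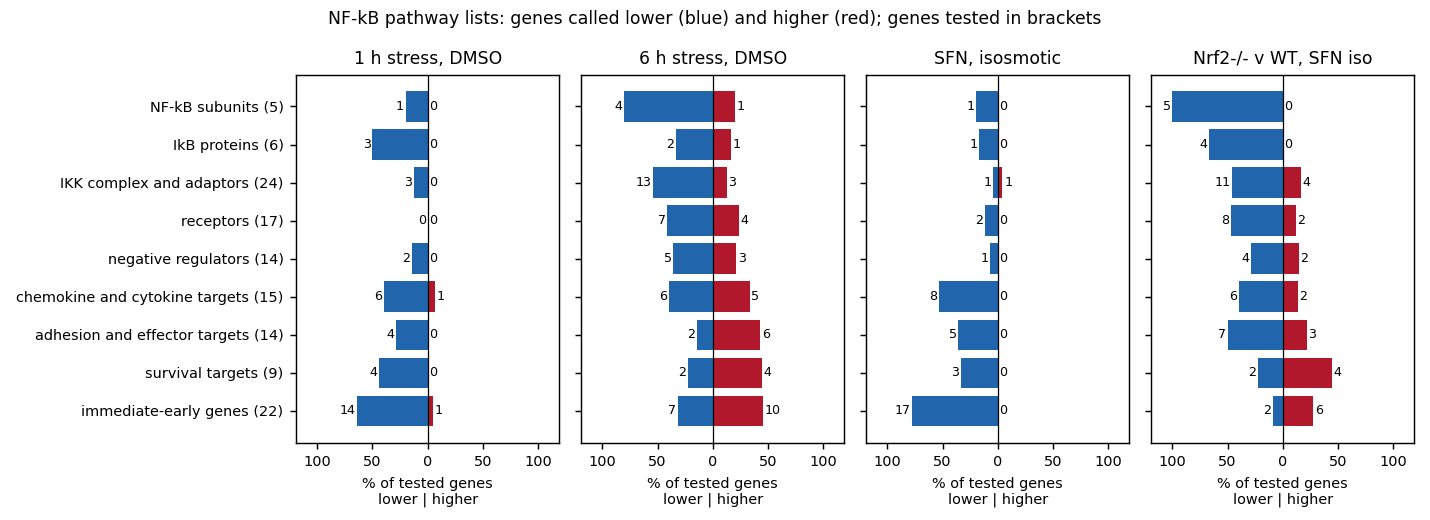
Share of the tested genes of 9 pathway lists (rows, number tested in brackets) called lower (left, blue) or higher (right, red) at edgeR adjusted p under 0.05 in 4 comparisons, with the number of genes at each bar. Chemokine and cytokine targets and immediate-early genes are lower with SFN in isosmotic cells (8 of 15 and 17 of 22). All 5 subunit genes, the members Nfkb1, Nfkb2 and Relb among them, are lower in Nrf2-/- cells.

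Nrf2-/- cells given SFN had lower levels of Nfkbia, Nfkbie, Nfkb1 and Nfkb2 than WT cells given SFN, both isosmotic and at 1 h, and Tnfaip3 was higher when isosmotic. Under isosmotic conditions 5 of the 9 were lower and 1 was higher, where 18.4% of all genes were lower and 15.7% higher.
Nfkbie was at 5.03 and 6.15 CPM, against 14.9 and 16.4 CPM in WT (log2 difference -1.48, SE 0.149, edgeR adjusted p = 2.35e-06). Nfkbia was at 30.8 and 35.1 CPM, against 49.4 and 44.1 CPM (-0.50, SE 0.136, edgeR adjusted p = 0.00985). Tnfaip3 was higher, at 41.9 and 44.9 CPM against 30.1 and 31.3 CPM (0.50, SE 0.0973, edgeR adjusted p = 0.00103). These values did not overlap between the lines, and the Nrf2-/- levels of Nfkbia and Tnfaip3 lay below those of WT cells in DMSO.
Nfkb1, at 130 and 128 CPM (-0.47, edgeR adjusted p = 0.000899), Nfkb2, at 172 and 153 CPM (-0.38, edgeR adjusted p = 0.0429), and Relb, at 21.8 and 21.0 CPM (-0.34, edgeR adjusted p = 0.0345), were lower. Nfkb2 and Relb did not pass under RLE scaling, nor in 14 and 8 of the 16 fits that left out a library. Icam1 was called lower by DESeq2, without a filter and without the Nrf2-/- 1 h libraries, the last with 7 members called in all. Leaving out replicate 1 of either the Nrf2-/- or the WT isosmotic SFN libraries left 3 members, Tnfaip3, Nfkbie and Nfkb1. Nfkbiz differed by -0.05 (95% interval -0.51 to 0.42) and Birc3 by 0.13 (95% interval -0.32 to 0.58).
At 1 h of stress 5 members were lower in Nrf2-/- cells and 0 higher, where 16.2% and 15.3% of all genes were. Nfkbia was at 32.1 and 23.4 CPM, against 83.9 and 86.1 CPM (-1.61, SE 0.139, edgeR adjusted p = 5.37e-07), and Nfkbie at 7.79 and 6.78 CPM, against 17.9 and 18.1 CPM (-1.31, edgeR adjusted p = 8.28e-06). Nfkb1, at 145 and 129 CPM, differed by -0.65 and Nfkbiz, at 23.4 and 11.5 CPM, by -0.70. For Nfkb2, at 215 and 145 CPM, the difference was -0.43 (edgeR adjusted p = 0.0261). Over the 22 alternative fits Nfkbiz ran from -1.29 to -0.28 and Nfkb2 from -0.73 to -0.18. Tnfaip3, at 41.4 and 39.7 CPM, differed by -0.20 (edgeR adjusted p = 0.137). The count was 3, Nfkbia, Nfkbie and Nfkb1, without replicate 2 of the Nrf2-/- 1 h libraries or without either WT library at 1 h, and 2 in a fit to these 4 libraries alone.

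Stress for 1 h in Nrf2-/- cells lowered 1 of the 9 members and raised 0, where 2.81% of all genes fell and 4.36% rose. Nfkbiz went from 38.7 and 49.8 CPM to 23.4 and 11.5 CPM (log2 change -1.34, SE 0.226, edgeR adjusted p = 0.00256). Nfkbia changed by -0.25 (95% interval -0.54 to 0.05, edgeR adjusted p = 0.346) and Tnfaip3 by -0.10 (95% interval -0.31 to 0.11, edgeR adjusted p = 0.641), and for Nfkbia the groups overlapped. The count was 3 without replicate 1 of the stressed libraries (with Nfkbia lower and Icam1 higher) and 4 without replicate 2 (with Nfkb2, Relb and Icam1 higher). It was 2 (with Icam1 higher) with DESeq2, with no filter and without replicate 2 of the WT DMSO 6 h libraries and 0 in a fit to these 4 libraries alone.
The change of Nfkbia under stress was more negative in Nrf2-/- than in WT cells by 1.11 on the log2 scale (value -1.11, SE 0.193, edgeR adjusted p = 0.0383), where 0.123% of all genes differed. This test held in 5 of 22 alternative fits and was lost in 14 of the 16 that left out a library. The 2 that kept it left out 1 of the Nrf2-/- 1 h libraries. The value of Nfkbia ran from -1.36 to -0.90 over the 22 fits. For Tnfaip3 the value was -0.70 (edgeR adjusted p = 0.0834). At 1 h itself the values of Nfkbia did not overlap between the lines.

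The lists of pathway genes, which include the members, also differed between the lines. Of all genes 18.4% were lower and 15.7% higher in isosmotic Nrf2-/- cells. All 5 subunit genes were lower there, the members Nfkb1, Nfkb2 and Relb among them. Rela was lower by 0.37 and Rel by 0.56 on the log2 scale. Of 6 IkB genes 4 were lower, the members Nfkbia and Nfkbie included. Among them the p50 partner Bcl3 had 1 and 9 counts, against 391 and 508 in WT. Traf1 had 24 and 30 counts, against 601 and 845, and Tnfrsf1b, the second TNF receptor gene, 0 and 4, against 235 and 405. Cxcl5 and Ccl2 were at 0 counts in all 4 Nrf2-/- libraries, each allowing up to 3 counts, while WT SFN isosmotic libraries had 95 and 142 counts of Cxcl5 and 950 and 1378 of Ccl2.
Not all targets were lower. Counts near the shares of all genes are not read as a difference of the pathway. Such counts are 2 of 17 receptors and 2 of 15 chemokine and cytokine genes higher, and 2 of 9 survival genes lower. Of 15 chemokine and cytokine genes 6 were lower and 2 higher, Cxcl16 by 1.54 and Lif by 1.04, and of 14 adhesion and effector genes 7 were lower and 3 higher, Ptgs2 by 2.21 and the urokinase gene Plau by 1.47. Of 24 IKK complex and adaptor genes 11 were lower and 4 higher (median -0.36), of 17 receptors 8 were lower and 2 higher, and of 9 survival genes 2 were lower and 4 higher. Immediate-early genes were higher in 6 of 22 cases and lower in 2. Of the 8 Nrf2 check genes 7 were lower, Srxn1 by 3.25 and Hmox1 by 2.87. The lines also differed in kidney markers, with Pax2 lower by 2.41 and Epcam higher by 2.54 on the log2 scale. The part of line history in these differences cannot be told apart from that of Nrf2.

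Ordered by its group means, Nfkbia was highest in WT DMSO isosmotic cells (115 ± 3.99 CPM, SD, n = 2), followed by WT SFN at 1 h (85.0 ± 1.52), WT DMSO at 1 h (77.7 ± 5.09) and WT DMSO at 6 h (57.1 ± 3.33). WT SFN at 6 h (56.1 ± 5.35), WT SFN isosmotic (46.8 ± 3.74), Nrf2-/- isosmotic (32.9 ± 2.99) and Nrf2-/- at 1 h (27.8 ± 6.13) followed. The 2 WT groups at 6 h did not differ beyond their spread, nor did the 2 Nrf2-/- groups. Tnfaip3 had another order, with both WT groups at 6 h on top and overlapping, then DMSO isosmotic and DMSO at 1 h, then WT SFN at 1 h, the 2 Nrf2-/- groups, and WT SFN isosmotic lowest.
Across the 8 group means of log2 CPM the 2 inhibitor genes Nfkbia and Tnfaip3 had a Pearson r of 0.41, while Tnfaip3 with Nfkbiz had 0.83 and Nfkb1 with Tnfaip3 0.86. Nfkbie and Nfkbiz were opposed (r = -0.60). Of 12283 genes with a mean of at least 50 counts, those most like Nfkbia were Macroh2a1 (r = 0.976), Tmprss2 (0.975) and Lamtor5 (0.970). Those most like Tnfaip3 were Arhgap29 (0.977), Myl12a (0.975) and Rps12 (0.973), and for Nfkbie they were Ccdc32 (0.998), Tpx2 (0.996) and Uqcc1 (0.995). For Nfkb1 the most alike were Rapgef2 (0.997) and Aplp2 (0.996), for Nfkbiz Gm49322 (0.995), for Birc3 Sar1b (0.993), for Nfkb2 Ube2e2 (0.993) and for Relb Ltv1 (0.983). Over 8 points that share libraries these values are descriptions only.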

How the data were processed

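RNA sequencing data of 16 mIMCD3 libraries were analysed from the raw counts per gene symbol that the authors deposited. The authors isolated total RNA (TRIzol), used an Illumina NovaSeq instrument and counted reads per gene with featureCounts on mm10. The paper names Hisat2 as aligner and the submitters' processing notes name Bowtie2 and SAMtools. Tool versions, annotation and strand setting are not given in the sources used here, and 1 label calls the cells primary. Rows without a gene name held no share of the counts.

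Counts were analysed with edgeR 4.0.16 (R 4.3.3) on all 16 libraries: TMM scaling, filterByExpr, 1 coefficient per group, robust quasi-likelihood F-test, and Benjamini-Hochberg adjustment over 19509 genes at 0.05. Log2 CPM for patterns used a prior count of 2. An exact permutation test of 2 against 2 libraries cannot go below p = 0.333. Replicate p-values measure the spread between cultures whose independence is only stated. Limits for a count of 0 cover counting error only.

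The members and lists were chosen with earlier results of these data known. Genes were named if a list member passed the test with a mean of at least 50 counts, at most 4 per list and direction, or if they were members, check genes or among the 3 genes most alike to a member. Of the latter the text gives 1 to 3 per member and none for Icam1, and 1 is not reported here. Alternatives were DESeq2 1.42.0, RLE scaling, a filter of at least 10 counts in every library or none, a replicate block, fewer libraries and leaving out each library. The scripts were tested on simulated data.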

Additional observations from a re-analysis of the deposited data

Results flagged for a closer look

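In 5 cases the response of a member to stress differed between treatments or lines by a test of the difference itself. The 1 h change of Nfkbia was more positive in SFN than in DMSO by 1.43 on the log2 scale, and that of Tnfaip3 by 1.07. At 6 h the corresponding values were 1.27 for Nfkbia and 1.40 for Tnfaip3. These 4 values share the isosmotic libraries, in which both genes were lower with SFN. The 1 h change of Nfkbia in SFN was more negative in Nrf2-/- than in WT cells (-1.11), a difference that passed in 5 of 22 alternative fits.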

How the results depend on the processing

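The differences in response of Nfkbia and Tnfaip3 between SFN and DMSO at 1 h and 6 h, and their lower isosmotic levels with SFN, passed in all 24 alternatives run for each. At 6 h of stress in DMSO the number of members called was 8, and 7 to 8 without each library in turn. Other counts of members moved, and the cause was not tested. At 1 h of stress in DMSO the count of 4 became 2 with at least 10 counts in every library and 0 to 5 without each library. At 1 h in SFN the count of 2 became 4 with DESeq2, with the libraries compared alone and without the Nrf2-/- 1 h libraries, 5 with the 12 WT libraries and 2 to 4 without each library. For SFN in isosmotic cells the count of 3 became 6 with the 12 WT libraries and without the Nrf2-/- 1 h libraries, and 2 to 6 without each library. For SFN at 1 h it became 3 with the libraries compared alone. For Nrf2-/- against WT it ran from 3 to 7 without each library when isosmotic. At 1 h it was 2 with the libraries compared alone and 3 to 6 without each library. For stress in Nrf2-/- cells the count of 1 became 2 with DESeq2 or no filter, 0 with the libraries compared alone and 1 to 4 without each library, the addition with DESeq2 or no filter being Icam1. For the difference of that response from WT the count of 1 became 2 with DESeq2, 0 with at least 10 counts in every library or the libraries compared alone, and 0 to 4 without each library. The difference between SFN and DMSO at 6 h changed sign within -0.13 to 0.067 for Nfkbia and -0.025 to 0.13 for Tnfaip3 without each library, never past the threshold. Other member values that were not called and changed sign stayed short of the threshold. Nfkbie at 1 h in DMSO (-0.01) was 0.026 with DESeq2 and with RLE, 0.037 with at least 10 counts in every library, 0.013 with the libraries compared alone, 0.012 with the 12 WT libraries and -0.036 to 0.019 without each library. Its difference in response between SFN and DMSO at 6 h (0.01) was -0.011 with DESeq2 and with no filter, -0.00807 with RLE, -0.00808 with the 12 WT libraries and -0.094 to 0.11 without each library. Isosmotic Nrf2-/- against WT ran from -0.24 to 0.12 for Nfkbiz and from -0.11 to 0.33 for Birc3. Over the member values the text gives, alternatives left 1589 unchanged in direction and call, 57 stronger, 78 weaker and 22 of the other sign. For 38 further member values that are not called or printed, 15 of 886 settings changed sign, 0 of these past the threshold, and 11 settings called the value.

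Replicate numbers, taken from the titles (the file numbers of the WT SFN isosmotic libraries are 2 and 3), are shared between groups, but the deviations of same-numbered libraries correlated between -0.0794 and 0.123 over 28 pairs of groups, so these numbers gave no sign of pairing. With the replicate number as a block, the members called changed for the Nrf2-/- by 1 h difference alone, from 1 to 0.

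With 2 libraries per group, and the spread shared across groups, a lone library left after an omission is assumed to vary like the others. All genes called at 1 h in DMSO numbered 1385 higher and 801 lower, against 2717 and 1617 with the 12 WT libraries, and those called with SFN in isosmotic cells 212 and 343, against 1570 and 1305. Depth limits Icam1, at 0 to 19 counts.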
